A study of Mus musculus with 6 samples.

Results

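The mitochondrial ribosomal RNAs (rRNAs) mt-Rnr1 and mt-Rnr2 were followed in a single-cell RNA-Seq experiment on 2 kinds of mouse cell, embryonic stem cells (mES) and embryonic fibroblasts (mEF). They are 2 of the 37 genes annotated on the mitochondrial chromosome, and their members are the alignment records on the plus strand of that chromosome whose 5' end lies within either gene. This gave 12490 of 750739 records in mES and 2906 of 459005 records in mEF.

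All 6 libraries carry both cell types in their labels. The mES are the line V6.5, grown with LIF and BME, and the mEF are Globalstem GSC-6002 cells from 10.5 p.c., grown in the same basal medium without these additions, with no further treatment of either. Cells were lysed in drops, their RNA was reverse transcribed from barcoded oligo(dT) primers, and the records were pooled by the authors into 1 mES and 1 mEF aggregate. There is therefore 1 pool and no replicate per cell type, no test between cell types, and every interval below is an exact 95% interval for counting error only, on PCR reads that are not independent molecules. The marker genes of the cell types were not analysed here, because the nuclear gene positions of the build of the files were not used.

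The mitochondrial chromosome is a small circle transcribed from both strands into long precursors. On the heavy strand transcript the small-subunit 12S rRNA (mt-Rnr1) and the large-subunit 16S rRNA (mt-Rnr2) come first, each between transfer RNAs that are cut out to release them. Both rRNAs are built into the mitochondrial ribosome, which translates the mitochondrial messengers. Mature 12S and 16S rRNAs carry at most short adenine tails, unlike the longer poly(A) tails of the mitochondrial messengers, and the adapter ligated to the far end of each cDNA here places the record's 5' end upstream of the site at which the oligo(dT) primed.

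In the annotation used (GENCODE M21, GRCm38), mt-Tf, the phenylalanine tRNA, lies at chrM:1-68. It is followed by mt-Rnr1 (ENSMUSG00000064337.1) at chrM:70-1024, 955 nt long. The valine tRNA mt-Tv lies at chrM:1025-1093, and mt-Rnr2 (ENSMUSG00000064339.1) at chrM:1094-2675, 1582 nt long. The leucine tRNA mt-Tl1 at chrM:2676-2750 and the complex I messenger mt-Nd1 at chrM:2751-3707 come next. All are on the plus strand, and both rRNAs are single exons with no UTR. The submitters' processing notes name mm9, and the mitochondrial sequence of that build was not compared base by base. Records that start on the annotated first bases, given below, bear on the gene starts only. They do not check the 3' ends or the sequence between.

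The first and last bases of the 2 genes are shown because 5' ends are counted from them. Capitals mark the first 4 bases, and the records at these bases are given below.

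mt-Rnr1 first bases, chrM:70-109: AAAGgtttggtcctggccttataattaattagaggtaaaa
mt-Rnr1 last bases, chrM:985-1024: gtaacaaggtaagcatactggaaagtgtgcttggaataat
mt-Rnr2 first bases, chrM:1094-1133: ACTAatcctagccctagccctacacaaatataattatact
mt-Rnr2 last bases, chrM:2636-2675: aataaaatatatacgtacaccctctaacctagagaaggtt

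The read names hold 3 sequencing runs, numbered by their records. Run 1 has 438528 mES and 293937 mEF records, run 2 has 203401 and 135387, and run 3 has 108810 and 29681. Runs 1 and 2 have 35-nt alignments within the rRNAs and use much the same positions, and run 3 has 45-nt alignments at mostly different ones. Runs 1 and 2 are therefore called library set 1 and run 3 library set 2, a split by technical run that the labels do not give. Set 2 makes up 14.5% of the mES and 6.47% of the mEF records, so a sum over the sets weighs them differently in the 2 pools. Values are given as CPM, records per 1000000 records of the same pool or run.

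mt-Rnr1 had 264 records (602 CPM) in run 1, 105 (516 CPM) in run 2 and 2617 (24051 CPM) in run 3 of the mES pool. In the mEF pool it had 164 (558 CPM), 87 (643 CPM) and 617 (20788 CPM). In both cell types run 3 stood far above runs 1 and 2, which were close to each other. mt-Rnr2 had 1898 records (4328 CPM), 822 (4041 CPM) and 6784 (62347 CPM) in the 3 runs of mES. In mEF it had 779 (2650 CPM), 367 (2711 CPM) and 892 (30053 CPM). The same run was high for both rRNAs and in both pools.

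**Figure D1:**
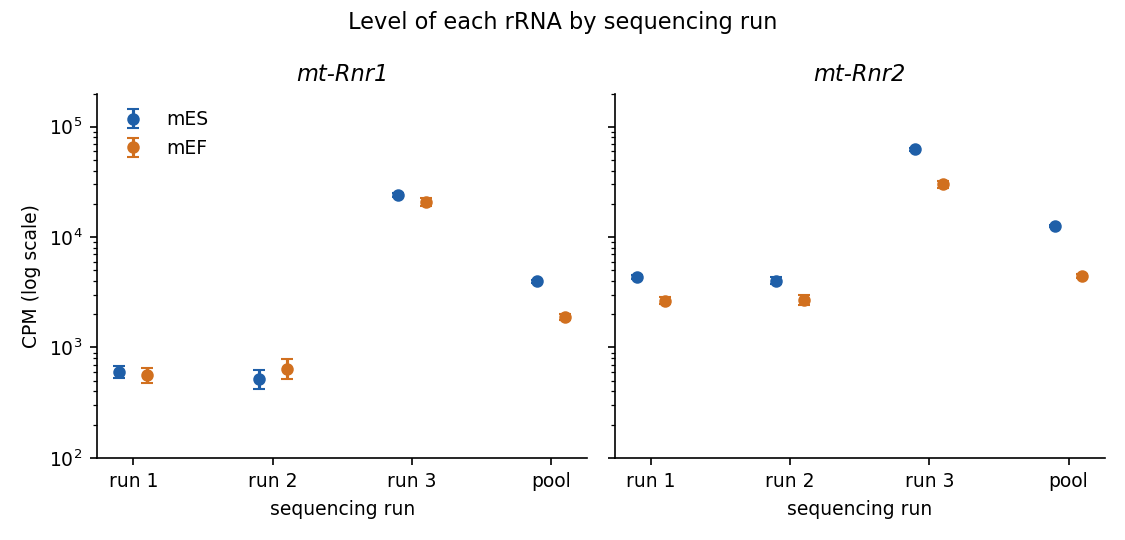
Level of mt-Rnr1 and mt-Rnr2 in CPM (log scale) in each sequencing run and in the whole pool, for mES (blue) and mEF (orange); bars are exact 95% Poisson intervals and are mostly smaller than the points. Run 3 stands above runs 1 and 2 for both rRNAs, and in run 2 mt-Rnr1 was 516 CPM in mES and 643 CPM in mEF.

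Between the library sets, mt-Rnr1 was 41.8-fold higher in set 2 in mES (95% interval 37.5 to 46.8) and 35.6-fold higher in mEF (30.7 to 41.3). mt-Rnr2 was 14.7-fold higher in mES (14.1 to 15.4) and 11.3-fold higher in mEF (10.3 to 12.3). Set 2 was thus higher for both rRNAs in both pools, and by more for the small-subunit rRNA. Across all loci with at least 50 records over both sets, where a locus is a chain of 5' ends on 1 strand at most 500 nt apart, 1.65% of the 2659 mES loci passed 4-fold toward set 2 and 47% toward set 1. In mEF 1.3% of 1920 loci passed it toward set 2 and 13.5% toward set 1. A region at chr17:39983257-39985742 (mm9) moved with the rRNAs. It took 1.54% of the mES records in set 1 and 32.0% in set 2, and 0.552% and 28.0% of the mEF records. With totals that leave this region out, the ratio of set 2 to set 1 was larger, at 60.6 in mES and 49.1 in mEF for mt-Rnr1 and 21.3 and 15.5 for mt-Rnr2.

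The rise was also in distinct positions, which PCR copies of 1 molecule do not add to. In mES, mt-Rnr1 had 5' ends at 36 positions in set 1, of 41140 positions genome-wide, and at 320 of 14024 in set 2. In mEF the numbers were 17 of 20083 and 114 of 5662. For mt-Rnr2 they were 147 and 549 positions in mES and 60 and 166 in mEF, over the same totals. Both rRNAs had more positions in set 2 although that set had fewer records. As shares of all positions, set 2 was 26.1-fold above set 1 for mt-Rnr1 in mES and 23.8-fold in mEF, and 11.0-fold and 9.81-fold for mt-Rnr2.

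Run 3 also lists second copies of the same alignment of the same read, 24108 in mES and 2529 in mEF, with 0 in runs 1 and 2. Of them, 606 and 56 fell on mt-Rnr1 and 1602 and 60 on mt-Rnr2. Without them the set 2 to set 1 ratio of mt-Rnr1 was 41.3 in mES and 35.3 in mEF, and that of mt-Rnr2 was 14.4 and 11.5.

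The comparison of cell types asks how the aggregate of stem cells differs from that of fibroblasts. Over all records mt-Rnr1 was at 3977 CPM in mES (3836 to 4123) and 1891 CPM in mEF (1767 to 2021), a ratio of 2.10 (1.95 to 2.27). mt-Rnr2 was at 12660 CPM (12406 to 12917) and 4440 CPM (4249 to 4637), a ratio of 2.85 (2.72 to 2.99). Both were thus higher in the mES pool, but these sums mix the library sets in different parts. From a mix of human and mouse cells, the authors estimated that most barcodes also hold some transcripts of other cells. The records here were not corrected for this, which limits all comparisons of the pools, also within the sets.

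Within library set 1, mt-Rnr1 was at 575 CPM in mES and 585 CPM in mEF, a ratio of 0.983 (0.835 to 1.16). Within set 2 the ratio was 1.16 (1.06 to 1.27). For the small-subunit rRNA the pooled difference of over 2-fold was thus not found within either set, and in set 1 the interval includes equal levels. mt-Rnr2 was at 4237 CPM in mES and 2669 CPM in mEF in set 1, a ratio of 1.59 (1.48 to 1.70), and the ratio in set 2 was 2.07 (1.93 to 2.23). The large-subunit rRNA was higher in mES in every run, with ratios of 1.63, 1.49 and 2.07 in runs 1 to 3.

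Neither rRNA passed 4-fold between cell types in any of these comparisons. Of 4321 loci with at least 50 records, 30.2% passed 4-fold toward mES and 24.6% toward mEF. Within set 1 the shares were 30.9% and 23.6% of 4180 loci, and within set 2 they were 19% and 16.4% of 116 loci. In pooled records of this kind fewer cells and less RNA per cell cannot be told apart.

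The balance of the 2 rRNAs was compared next. mt-Rnr2 had 3.18 times the records of mt-Rnr1 in mES (3.05 to 3.32) and 2.35 times in mEF (2.17 to 2.54). Per length of the gene, the ratio was 1.92 and 1.42. In set 1 the record ratio was 7.37 (6.61 to 8.24) in mES and 4.57 (3.98 to 5.26) in mEF, or 4.45 and 2.76 per length. In set 2 it was 2.59 (2.48 to 2.71) and 1.45 (1.30 to 1.60), or 1.56 and 0.873 per length. The ratio was higher in mES than in mEF within both sets, and lower in set 2 than in set 1 in both pools. In distinct positions per length it was 2.46 and 2.13 in set 1 and 1.04 and 0.879 in set 2. The intervals cover counting error of the records only and do not measure a difference between cell types. In set 1 the mt-Rnr1 records lay on only 36 positions in mES and 17 in mEF.

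In set 2 of the mEF pool the order per length was the other way round, with mt-Rnr1 above mt-Rnr2. A ratio of cDNA ends depends on how each RNA was primed and is not a ratio of molecules in the cell.

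Against the other mitochondrial genes, the rRNAs changed sides between the sets. They held 29.8% of the mitochondrial records of mES in set 1 (29.0 to 30.7) and 97.7% in set 2 (97.4 to 98.0). In mEF they held 11.6% (11.0 to 12.2) and 93.0% (91.6 to 94.2). With the highest-score records only, the shares were 56.5% and 99.3% in mES and 31.8% and 96.2% in mEF. Of the 12 heavy strand messengers, which encode subunits of complexes I, III and IV and of ATP synthase, 9 had at least 50 records. None of the 9 was higher in set 2 in either pool.

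Together the 12 messengers went from 10501 CPM in set 1 to 1847 CPM in set 2 of mES, and from 23225 to 3504 CPM in mEF. mt-Co1, the catalytic subunit of complex IV, went from 3704 to 864 CPM in mES and from 6000 to 775 CPM in mEF. mt-Cytb, the cytochrome b of complex III, went from 632 to 55.1 CPM in mES and from 2036 to 303 CPM in mEF. The messengers with enough records thus fell on the other side of the equal line from both rRNAs. That side is not particular to them, as 47% of all mES loci and 13.5% of all mEF loci passed 4-fold toward set 1. The share of all loci lower in set 2 by any amount was not counted. With the highest-score records only, mt-Co1 in mEF was an exception, at 425 CPM in set 1 and 555 CPM in set 2 on 141 and 14 records, and 4 of the 9 messengers had no such record at all. Under 50 records, mt-Atp8 had 14 records and mt-Nd5 had 18 in mES, all of them in set 2.

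**Figure D2:**
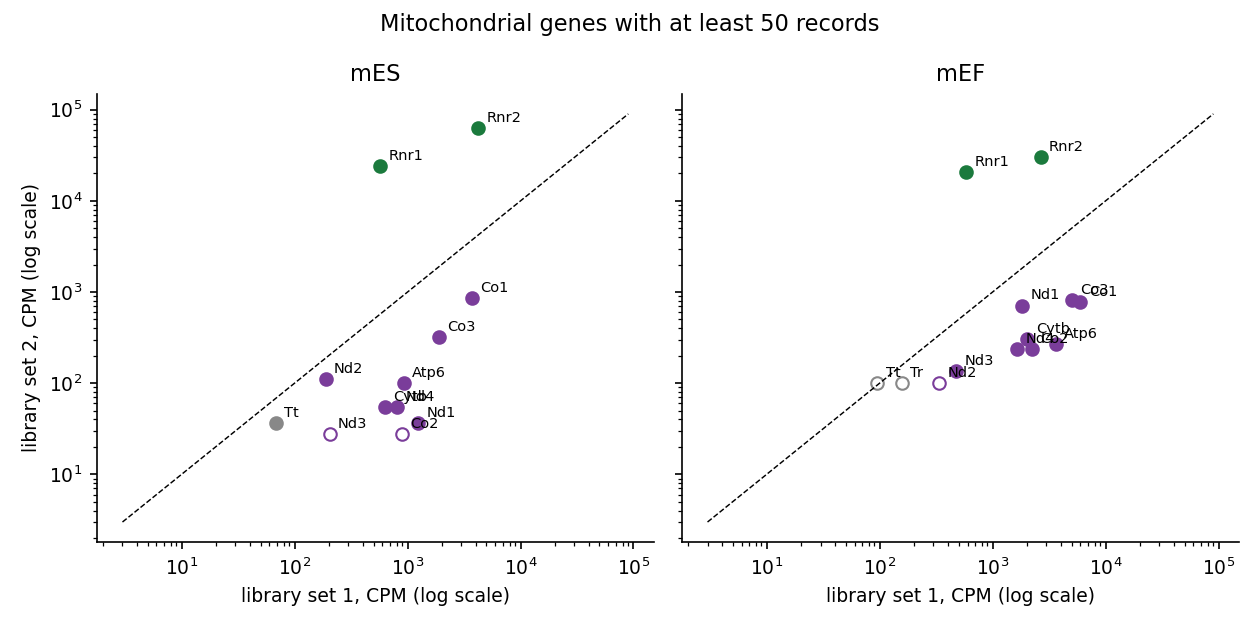
CPM in library set 2 (vertical, log scale) against library set 1 (horizontal, log scale) for each mitochondrial gene with at least 50 records, in mES and mEF; green points are rRNAs, purple messengers, grey tRNAs, and open points stand at the level of 3 counts where a set had none; a gene with no record in the pool is left out. Rnr1 and Rnr2 lie above the dashed line of equal CPM and the messengers lie below it.

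In set 1, all 9 messengers were lower in mES than in mEF, while mt-Rnr2 was higher in mES and the interval of mt-Rnr1 included equal levels. With the highest-score records only, mt-Co1 went the other way in set 1, at 492 CPM in mES and 425 CPM in mEF, and 4 of the 9 had no such record. Over all records of set 2, 7 of the 9 were lower in mES. Most messenger records have several placements in the genome, which mt-Rnr1 has not, so these classes are not measured alike.

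By root mean square difference in log2 CPM over the 4 combinations of pool and set, each gene centred on its own mean and with 3 counts in place of 0, each rRNA was nearest to the other, at 0.880. The next nearest of the 11 other genes with at least 50 records were mt-Tr, an arginine tRNA (2.90), mt-Tt, a threonine tRNA (2.90), and mt-Nd2, a complex I subunit (3.27), for mt-Rnr1. For mt-Rnr2 they were mt-Tt (2.27), mt-Nd2 (2.55) and mt-Tr (2.66). The values of these 3 rest in part on combinations with no record, and none has a profile close to that of the rRNAs.

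The next question was where in each rRNA the cDNAs ended. The 5' ends of mt-Rnr1 had a median distance from the 3' end of the gene of 530 nt in mES (quartiles 386 and 742) and 589 nt in mEF (413 and 737). The nearest 5' end lay 163 nt from the 3' end in mES and 113 nt in mEF, so the last 100 nt of the small-subunit rRNA held none. In set 2, the windows at 300 to 399, 400 to 499 and 700 to 799 nt from the 3' end held 18.5%, 19.0% and 19.9% of the records in mES and 18.0%, 25.3% and 22.9% in mEF. By distinct positions the window at 300 to 399 nt held the most in both pools, 19.7% in mES and 24.6% in mEF. In set 1, 35.1% of the mEF and 17.1% of the mES records lay at 700 to 799 nt, and 17.6% and 16.7% of the positions, as 79 of the 88 mEF records there share 1 position.

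mt-Rnr2 had a median distance of 1133 nt in mES (quartiles 261 and 1342) and 976 nt in mEF (212 and 1359). The records fell into separate groups, and both medians lie in the one farther from the 3' end. In mES 27.0% of the records were under 400 nt from the 3' end and 71.5% at 800 nt or more, and in mEF 34.1% and 63.0%. The window at 100 to 199 nt alone held 20.5% in mES and 23.1% in mEF. Few 5' ends of the large-subunit rRNA lay between the groups. The share under 400 nt was 37.8% in set 1 and 22.7% in set 2 of mES, and 43.1% and 22.5% in mEF. Set 2 had thus a smaller part of its 16S records near the 3' end in both pools.

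**Figure D3:**
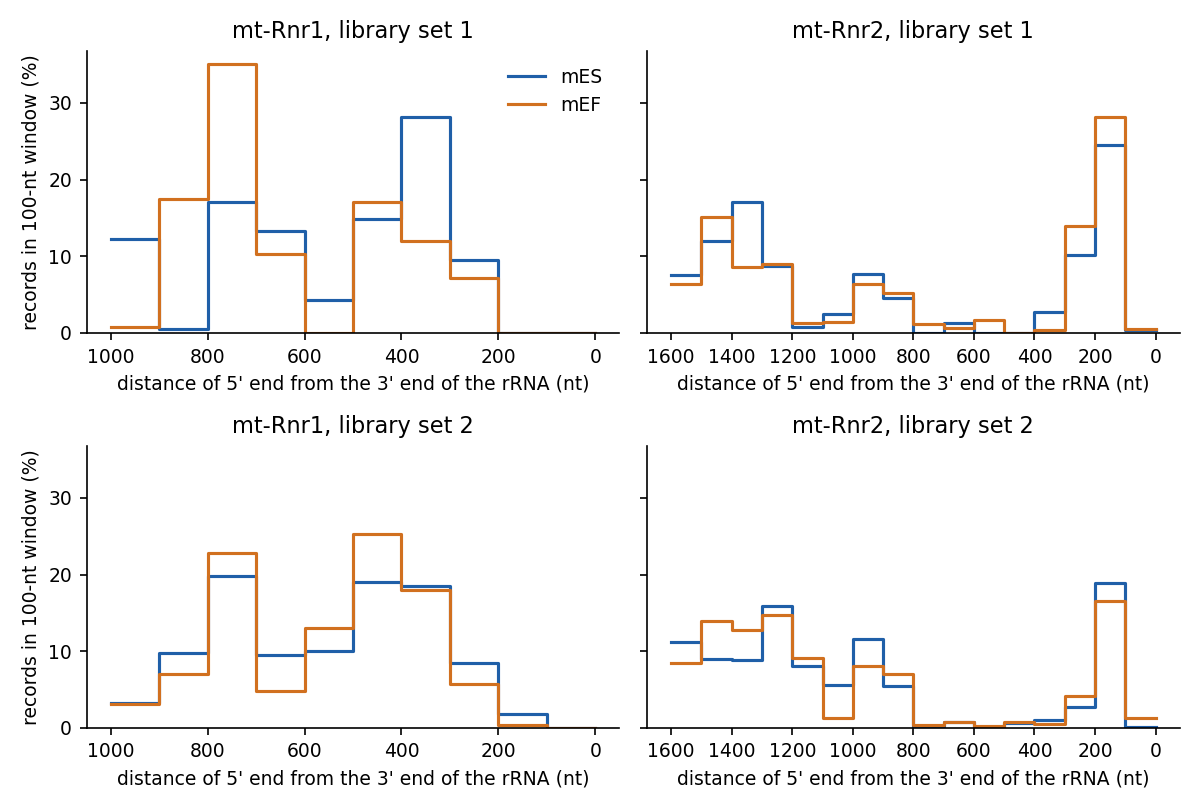
Percent of the records of mt-Rnr1 (left) and mt-Rnr2 (right) in 100-nt windows, by distance of the 5' end from the 3' end of the rRNA (nt, 3' end at the right), for library set 1 (top) and 2 (bottom), mES in blue and mEF in orange. mt-Rnr2 has a group at 100 to 199 nt and another beyond 800 nt, and mt-Rnr1 has no 5' end in the last 100 nt.

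An oligo(dT) primer can also anneal to adenines within an RNA, so stretches of 6 or more adenines (AAAAAA, RNA-sense strand, overlapping matches joined) were searched. mt-Rnr1 has none. mt-Rnr2 has 4, shown with 12 bases on either side and the stretch in capitals.

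bases 361 to 366 of mt-Rnr2: agctggttacccAAAAAAtgaatttaagtt
bases 395 to 401 of mt-Rnr2: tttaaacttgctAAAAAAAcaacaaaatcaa
bases 463 to 468 of mt-Rnr2: cttctggaacggAAAAAAcctttaatagtg
bases 1177 to 1182 of mt-Rnr2: acctcggagaatAAAAAAtcctccgaatga

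A stretch started 20 to 400 nt downstream of 50.8% of the mt-Rnr2 records in mES and 49.2% in mEF. The same held for 49.4% and 51.9% of the distinct positions, and for 52.1% of all bases of the gene. The share over the whole gene was thus no higher at 5' ends, but this sum joins unlike parts. The distance windows from 500 to 799 nt lie upstream of the stretch at base 1177. Each held 0.0842% to 0.905% of the mES and 0.736% to 1.08% of the mEF records. Windows from 1200 to 1599 nt lie upstream of the other stretches, and each held 9.87% to 13.8% and 7.31% to 14.6%. The window at 100 to 199 nt, with no stretch downstream, held 20.5% and 23.1%. An excess upstream of single stretches was not tested. The absence of the motif from mt-Rnr1 says only that these letters are not in the gene.

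At their starts, both rRNAs showed 5' ends on the annotated first base. In mES, base 1 of mt-Rnr2 was the end of 281 records, base 2 of 138, base 3 of 41 and base 4 of 49. The base just before, the last of mt-Tv, had 1 record. In mEF the numbers were 22, 50, 0 and 15. The ACTA printed above thus held 5.36% of the mt-Rnr2 records in mES and 4.27% in mEF, and base 1 was the most used position of that gene in mES. In mES this rests mostly on set 2, which holds 258 of the 281 records at base 1. The first 4 bases held 6.47% of the mES records in set 2 and 2.57% in set 1, where base 1328 was the most used, with 112 records against 23 at base 1. For mt-Rnr1, base 1 had 36 records in mES and 2 in mEF, and the first 4 bases held 1.57% and 0.230%.

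**Figure D4:**
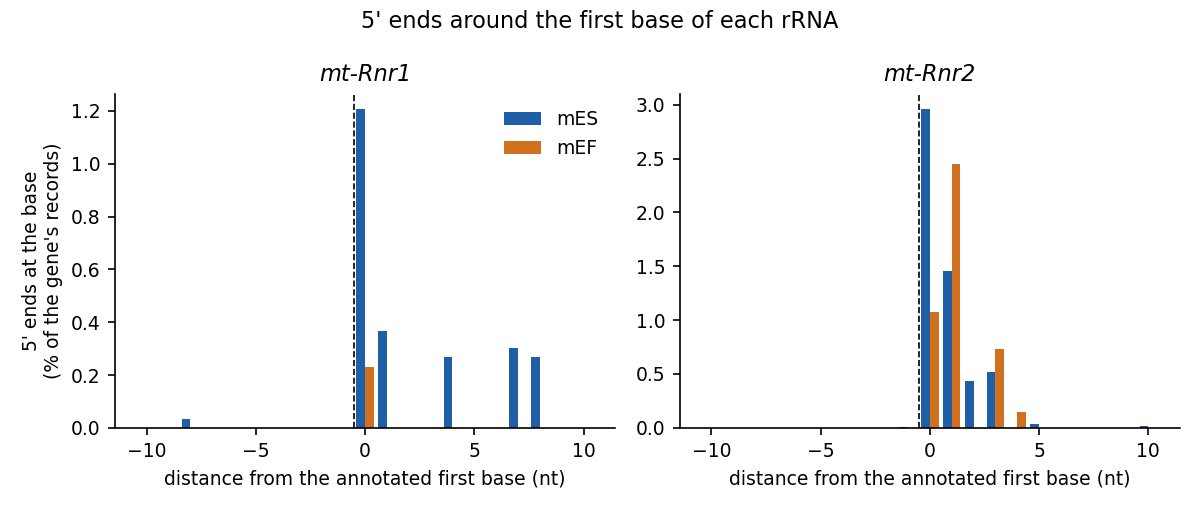
Percent of the records of mt-Rnr1 (left) and mt-Rnr2 (right) with their 5' end at each base around the annotated first base (0 on the axis, in nt), mES in blue and mEF in orange; the dashed line is the gene's start. Bars begin at the first base, and 1 mES record lies 8 nt before mt-Rnr1 and 1 just before mt-Rnr2.

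Few records crossed a boundary. In mES, 1 record spanned the mt-Tf to mt-Rnr1 junction, 1 the mt-Tv to mt-Rnr2 junction and 1 the mt-Rnr2 to mt-Tl1 junction, and 0 the other junctions up to mt-Nd1. In mEF there were 0. The tRNAs next to the rRNAs had 1 record in mt-Tf, 1 in mt-Tv and 27 in mt-Tl1 in mES, the 27 all at 1 position and in set 1, and 0 in mEF. On the minus strand over both rRNAs there were 0 records in either pool. The aligned part of the rRNA records was thus on the sense strand, and nearly all of it within the gene ends. With alignments of 35 or 45 nt and few 5' ends near a 3' end, records could hardly reach the 3' junctions. The rest of each cDNA and its priming site were not seen.

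The 5' ends were spread unevenly over the positions used. For mt-Rnr1 the 10 most used positions held 17.3% of the records in mES, of 337 positions, and 36.9% in mEF, of 125. For mt-Rnr2 they held 13.7%, of 603 positions, and 28.2%, of 208. In set 1 mt-Rnr1 used only 36 positions in mES and 17 in mEF, and the top 10 held 56.4% and 92.0% of its records. With so few positions a high share is partly fixed, and the share was not compared with other genes. Set 1 of the small-subunit rRNA thus rests on very few cDNA ends, above all in mEF.

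Some of the most used starts are shown with the 35 bases that follow from the 5' end, since they show how far the sets and pools shared positions. Capitals mark the first 4 bases.

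mt-Rnr1 base 164, chrM:233-267: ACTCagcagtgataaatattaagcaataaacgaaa
mt-Rnr1 base 227, chrM:296-330: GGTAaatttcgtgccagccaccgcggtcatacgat
mt-Rnr2 base 1419, chrM:2512-2546: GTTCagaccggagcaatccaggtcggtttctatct

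Base 164 of mt-Rnr1 was the most used position of set 2 in both pools, with 115 records in mES and 43 in mEF, against 8 and 0 in set 1. Base 227 was the most used in mEF, with 79 of its 85 records in set 1, where mES had 0. Base 1419 of mt-Rnr2, in the group near the 3' end, was the most used of that gene in mEF, with 77 records. The leading position of the small-subunit rRNA was thus shared between pools in set 2 and not in set 1.

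Positions were shared as follows, counted for the rRNAs only. Sharing over all positions of the genome was not counted, so whether these overlaps are high or low for the data is not known. Runs 1 and 2 shared 27 mt-Rnr1 positions in mES, of 31 and 32, and 13 in mEF, of 16 and 14. The 2 library sets shared 19 of 36 and 320 in mES, and 6 of 17 and 114 in mEF. For mt-Rnr2 the runs of set 1 shared 121 of 141 and 127 positions in mES and 48 of 53 and 55 in mEF, and the sets shared 93 of 147 and 549, and 18 of 60 and 166. Between the pools within set 1, 4 mt-Rnr1 positions were shared, of 36 in mES and 17 in mEF, and 28 mt-Rnr2 positions, of 147 and 60. Within set 2 they shared 67 mt-Rnr1 positions, of 320 and 114, and 107 mt-Rnr2 positions, of 549 and 166. Over both sets, 22.6% of the mES and 60.8% of the mEF positions of mt-Rnr1 were shared, and 24.2% and 70.2% of those of mt-Rnr2. Runs 1 and 2 thus drew on nearly the same cDNA ends, and do not count as separate measurements.

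All mt-Rnr1 records had the highest mapping score (255), which marks a single placement. Of the mt-Rnr2 records, 765 in mES, or 8.05% (7.51 to 8.61), and 127 in mEF, or 6.23% (5.22 to 7.37), had a lower score. Each of them had exactly 1 other placement, within chr10:95540159-95540520 on the minus strand (mm9), and the 2 placements kept a constant offset without a gap. Their 5' ends lay 838 to 1155 nt from the 3' end of mt-Rnr2. In that stretch of the gene in mES 1456 of 2221 records still had the highest score.

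**Figure D5:**
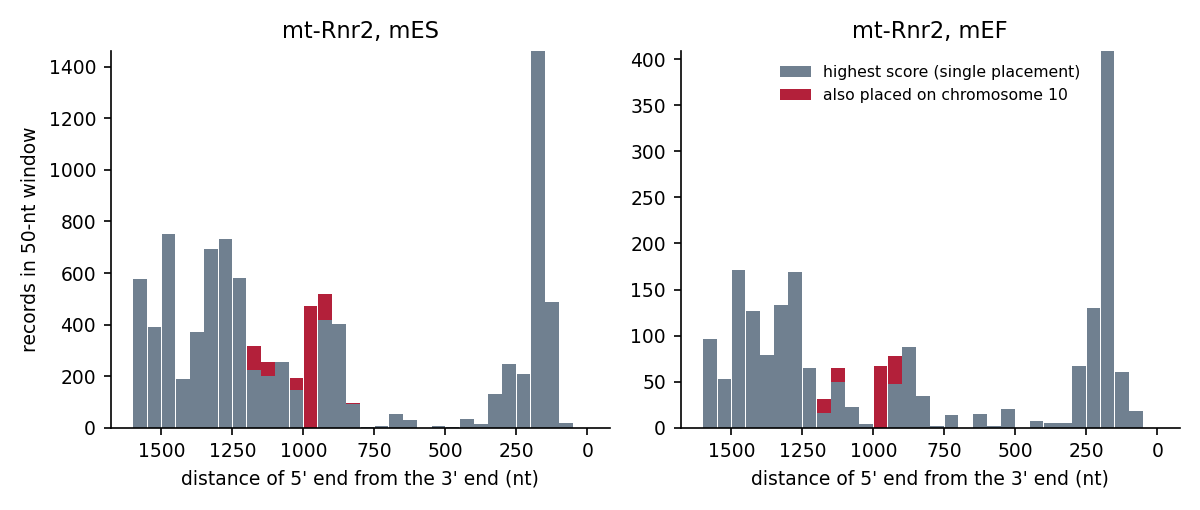
Records of mt-Rnr2 in 50-nt windows by distance of the 5' end from the 3' end (nt), for mES and mEF; grey bars are highest-score records and red bars, stacked on them, records also placed on chromosome 10. The red records, 765 in mES and 127 in mEF, lie between 838 and 1155 nt from the 3' end.

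Over the chromosome 10 region and its flanks, 1 record in mES and 0 in mEF had the highest score. Nearly all reads that set the 2 copies apart thus fell on the mitochondrial one. Over the whole mitochondrial chromosome 29.4% of the mES and 58.4% of the mEF records had several placements, so the rRNAs were the less affected part. With the highest-score records only, the ratio of mES to mEF for mt-Rnr2 was 2.79 over all records, 1.64 in set 1 and 2.00 in set 2.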

How the data were processed

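The authors aligned the reads with TopHat and pooled the alignments by cell type. The submitters' processing notes name mm9, and versions are not given in the sources used here. The deposited records hold position, strand, read name and a mapping score with 4 values. Records were counted here from these deposited alignments.

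A record belonged to an rRNA by its 5' end, on the plus strand, with gene positions and sequence from GENCODE M21 (GRCm38), used for the mitochondrial chromosome only. The members and lists were chosen with earlier results of these data known. Named genes were both rRNAs, their neighbours and the 3 nearest genes with at least 50 records. mt-Co1, mt-Cytb, mt-Atp8 and mt-Nd5 were named after their values were seen. Exact Poisson and binomial intervals (95%) and 3 counts in place of 0 (4.00 CPM in mES, 6.54 CPM in mEF) were used. No test was made, as each cell type is 1 pool. Alternatives were the highest score, distinct positions, second copies dropped, single runs, other denominators, assignment, strand and thinning. Locus calls, gene assignment and the finding of second copies were tested on simulated data, and the other steps were not. All used Python 3.11.15, numpy 2.4.6, pandas 2.3.3 and scipy 1.17.1.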

Additional observations from a re-analysis of the deposited data

Results flagged for a closer look

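The log2 ratio of mES to mEF for mt-Rnr1 had opposite signs in the library sets, at -0.024 in set 1 (95% interval -0.26 to 0.21) and 0.21 in set 2 (0.08 to 0.34). The difference between the sets was not tested, and the interval in set 1 includes 0.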

How the results depend on the processing

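The pooled log2 ratio of mES to mEF depends on the sequencing run. For mt-Rnr1 (1.07) it reversed to -0.32 in run 2 and -0.024 without run 3, and was 0.11 in run 1, 0.21 in run 3, 0.20 in run 3 with second copies dropped (chosen after seeing the data), 0.88 with second copies dropped and 0.34 for distinct positions. For mt-Rnr2 (1.51) these were 0.58 in run 2, 0.67 without run 3, 0.71 in run 1, 1.05 in run 3, 1.00, 1.33 and 0.44. The record ratio of mt-Rnr2 to mt-Rnr1 in mES (3.18) was 7.19, 7.83 and 2.59 in runs 1 to 3, 7.37 without run 3, 2.58 in run 3 with second copies dropped, 3.32 with second copies dropped, 2.93 with the highest score and 1.79 for distinct positions. In mEF (2.35) it was 4.75, 4.22 and 1.45 in runs 1 to 3, 4.57 without run 3, 1.48 in run 3 with second copies dropped and 1.66 for distinct positions. The median distance from the 3' end was 415 nt in run 1 and without run 3 for mt-Rnr1 in mES, and 728, 709 and 502 nt in runs 1 to 3 and 717 nt without run 3 in mEF. For mt-Rnr2 it was 952 nt in runs 1 and 2 and without run 3, 1145 nt in run 3, 1184 nt with the highest score and 1094 nt for distinct positions in mES, and 896, 853 and 1183 nt in runs 1 to 3 and 896 nt without run 3 in mEF. The ratio of set 2 to set 1 for mt-Rnr1 was 26.1 in mES and 23.8 in mEF for distinct positions, and 60.6 and 49.1 with a total without the chromosome 17 region. For mt-Rnr2 these were 11.0 and 9.81, and 21.3 and 15.5, and with the highest score 12.4 and 10.2. With a minimum of 10 records, 4950 loci passed 4-fold toward mES and 3598 toward mEF, against 1303 and 1061 with 50. The number of loci tested at 10 records is not given here, so these counts cannot be read as shares. The other 40 values moved by less than counting error or, for counts, stayed within 1.5 times. The cause of the moves was not tested. No paired analysis was possible because all libraries are in 1 group and the records are pooled, and for the same reason no single library could be left out. Depth limits set 2 of mEF most, with 29681 records.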
